A study of Mus musculus with 64 samples.

Results

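The genes described here are 10 genes of the brain microvessel: *Cldn5*, *Pecam1*, *Flt1*, *Kdr*, *Slc2a1*, *Mfsd2a* and *Abcb1a*, which mark endothelial cells and their barrier functions, and *Pdgfrb*, *Rgs5* and *Vtn*, which mark pericytes. They were chosen by name, by matching the Ensembl identifiers of the deposited table to gene symbols in the GENCODE vM21 annotation, and all 10 were found among its 18432 genes. Bulk tissue RNA was measured by RNA-seq in the frontal cortex and the hippocampus of C57BL/6N mice, in order to follow gene expression in a mouse model of a neurodevelopmental disorder with seizures. Knock-in (KI) mice carried 1 copy of the Arg87Cys substitution in *Cyfip2* (*Cyfip2* +/R87C), and wild-type (WT) mice were their littermates. Each genotype was sampled at postnatal week (PWK) 1, 7, 14 and 28 with 4 mice per age and genotype, which gave 16 groups of 4 libraries and 64 libraries in all. Both regions came from the same mice and from both sides of the brain, different mice were used at each age, and the labels hold no seizure record for single mice. The substitution is a single amino acid change, so the level of *Cyfip2* itself does not check the genotype of a library. The values are normalized counts, that is, estimated read counts divided by factors for library size and transcript length.

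Capillaries of the brain are lined by endothelial cells that are sealed to each other by tight junctions and that move little fluid across the cell in vesicles, so nutrients enter through dedicated transporters and many foreign compounds are pumped back into the blood. Pericytes lie in the wall of these capillaries within the basement membrane, depend on platelet-derived growth factor made by the endothelium, and help to keep the barrier closed. In bulk tissue these genes report on a small share of all cells, and fewer vascular cells and less RNA per vascular cell cannot be told apart.

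The summed normalized counts of the 64 libraries lay between 29225576 and 32601227 with a median of 31051098. The values had already been divided by factors for library size, so these totals do not measure the read depth of a library. All 10 genes were above the filter in every comparison. A separate list of 10 endothelial genes (*Cdh5*, *Tie1*, *Tek*, *Esam*, *Emcn*, *Erg*, *Eng*, *Sox17*, *Sox18* and *Egfl7*), called here the endothelial reference list, was detected in full. So was a list of 14 further genes of mural cells (pericytes and smooth muscle), called here the mural list, which also holds the endothelial growth factor gene *Pdgfb*. Where genes are taken relative to the mural list, the smooth muscle genes *Acta2*, *Myh11*, *Tagln* and *Cnn1* were left out and *Pdgfb* was kept. A list of 6 marker genes of the hippocampus summed to 17371 to 29247 in the hippocampal libraries and to 3657 to 8718 in the cortical ones, so the regions matched their labels. A single library stood apart on the lists. Replicate 1 of KI hippocampus at PWK 14 had a summed level of 5204 over the endothelial reference list, against 2889 to 3003 in the other 3 KI mice, and of 9875 over the mural list, against 4607 to 4913. Its list of 7 astrocyte genes summed to 337089 (210898 to 220754 in the other 3) and its list of 7 microglia and macrophage genes to 13796 (6357 to 8537), while its list of 8 choroid plexus genes was the lowest of the 4 at 2016 (18527 to 100845). Differences of that group from WT are therefore given with and without this library, and those taken relative to a list with it. Choroid plexus tissue was carried along unevenly in the hippocampal libraries, with summed levels of 2169.7 to 107021 in WT hippocampus at PWK 14 against 329 to 511 in WT cortex, and 1 WT cortex library of PWK 28 (replicate 2) reached 22005.

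On the GRCm38 build, *Cldn5* (ENSMUSG00000041378) lies at chr16:18776847-18778262 on the plus strand and *Pecam1* (ENSMUSG00000020717) at chr11:106654217-106750628 on the minus strand. The VEGF receptor genes *Flt1* (ENSMUSG00000029648) and *Kdr* (ENSMUSG00000062960) are at chr5:147561604-147726011 and chr5:75932827-75978458, both on the minus strand. The transporter genes *Slc2a1* (ENSMUSG00000028645), *Mfsd2a* (ENSMUSG00000028655) and *Abcb1a* (ENSMUSG00000040584) are at chr4:119108711-119137983 (plus), chr4:122946850-122961188 (minus) and chr5:8660077-8748575 (plus). The pericyte genes *Rgs5* (ENSMUSG00000026678) and *Vtn* (ENSMUSG00000017344) are at chr1:169655501-169695813 and chr11:78499091-78502324, both on the plus strand. All 10 are protein-coding genes and each value is a sum over the transcripts of the gene. Exons of *Slc2a1* share 105 bases and those of *Abcb1a* share 553 bases with genes on the opposite strand (the kit kept the strand, but whether it was used in assigning reads is not given in the sources used here), and *Abcb1a* has a close paralog in *Abcb1b*, so a part of the reads assigned to these genes is uncertain.

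Of the 10 genes, 8 have an entry among the RefSeq promoters used here, and *Pecam1* and *Pdgfrb* do not. The 120 bases before the RefSeq start (GRCm38.p6) are shown for the 7 genes that were called in at least 1 comparison of KI with WT, because these are the genes whose level differed between genotypes. Each sequence runs 5′ to 3′ on the strand of its gene, and capitals mark matches to the motifs named after it. The windows are chr16:18776727-18776846 (plus), chr5:147726012-147726131 (minus), chr5:75978456-75978575 (minus), chr4:119108625-119108744 (plus), chr4:122961189-122961308 (minus), chr1:169655381-169655500 (plus) and chr11:78499000-78499119 (plus).
Cldn5: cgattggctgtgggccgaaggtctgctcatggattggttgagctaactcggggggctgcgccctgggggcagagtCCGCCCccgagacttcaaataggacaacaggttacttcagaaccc
Flt1: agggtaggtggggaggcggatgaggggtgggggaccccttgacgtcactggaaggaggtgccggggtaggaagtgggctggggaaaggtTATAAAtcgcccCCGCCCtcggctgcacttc
Kdr: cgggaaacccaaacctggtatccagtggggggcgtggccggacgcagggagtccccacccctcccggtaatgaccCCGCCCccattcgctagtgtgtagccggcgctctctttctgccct
Slc2a1: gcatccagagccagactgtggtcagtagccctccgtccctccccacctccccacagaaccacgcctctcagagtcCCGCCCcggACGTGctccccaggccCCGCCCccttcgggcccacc
Mfsd2a: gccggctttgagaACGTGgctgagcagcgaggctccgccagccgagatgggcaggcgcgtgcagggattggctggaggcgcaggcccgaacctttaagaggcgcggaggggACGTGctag
Rgs5: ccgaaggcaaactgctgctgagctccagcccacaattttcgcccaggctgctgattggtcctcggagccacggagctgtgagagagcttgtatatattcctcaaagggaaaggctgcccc
Vtn: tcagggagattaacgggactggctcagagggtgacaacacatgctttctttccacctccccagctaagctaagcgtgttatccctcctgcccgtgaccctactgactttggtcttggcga

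The 6 motifs were searched on both strands of these windows as the exact strings given here, and variant forms were not sought. The share of all 32851 RefSeq promoter windows of 120 bases that held each string was taken as the background. A GC box (GGGCGG, in 26.5% of all windows) was present in *Cldn5*, *Flt1*, *Kdr* and *Slc2a1*, the last with 2 matches, and each match lay on the opposite strand. In the exact form TATAAA (in 6.34%), a TATA box was present in *Flt1* only, with its first base 31 bases before the start. In the exact form ACGTG (in 9.41%), the core of the hypoxia response element was found 36 bases before the start of *Slc2a1*, and 107 and 9 bases before that of *Mfsd2a*. Its other form GCGTG, which the windows of *Kdr*, *Mfsd2a* and *Vtn* hold on the strand of the gene, was not searched. The composite FOX:ETS motif (AACAGGAA, in 1.21%), an ETS motif (CCGGAAG, in 4.99%) and the TCF/LEF motif (CTTTGAT, in 1.43%) were not found in any of the 7 windows, and no match overlapped another. The windows of *Rgs5* and *Vtn* held none of the 6 exact strings, though that of *Rgs5* holds TATATAT, a variant of the TATA box that was not searched. The GC content of the endothelial windows was 60.0% to 71.7%, and that of *Rgs5* and *Vtn* was 56.7% and 54.2%.

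Levels were first compared between genes in WT mice, per kilobase of exon. The length used was the exonic length of each gene (1.416 kb for *Cldn5* to 13.504 kb for *Flt1*). It was not that of the transcripts present, so the order between genes depends on this choice. In cortex at PWK 1, *Rgs5* (1147 normalized counts per kb) and *Cldn5* (992) were the most abundant of the 10, followed by *Vtn* (742), *Mfsd2a* (479) and *Slc2a1* (347). *Kdr* (184) and *Pdgfrb* (178) overlapped between mice, as did *Pecam1* (105), *Flt1* (99.0) and *Abcb1a* (96.0), the lowest. By PWK 28 the order had been rearranged. *Slc2a1* (829.7) and *Vtn* (711) then led with overlapping ranges, *Rgs5* (415) and *Mfsd2a* (406) overlapped next, and *Cldn5* (245), *Abcb1a* (161), *Pdgfrb* (126), *Flt1* (91.9), *Pecam1* (68.6) and *Kdr* (30.8) followed without overlap. *Kdr* thus moved from the sixth to the lowest place, and *Slc2a1* from the fifth to the highest. In hippocampus the same genes led and closed the order at PWK 28, where *Vtn* reached 929.8, *Slc2a1* 775 and *Kdr* 46.0 normalized counts per kb.

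**Figure D1:**
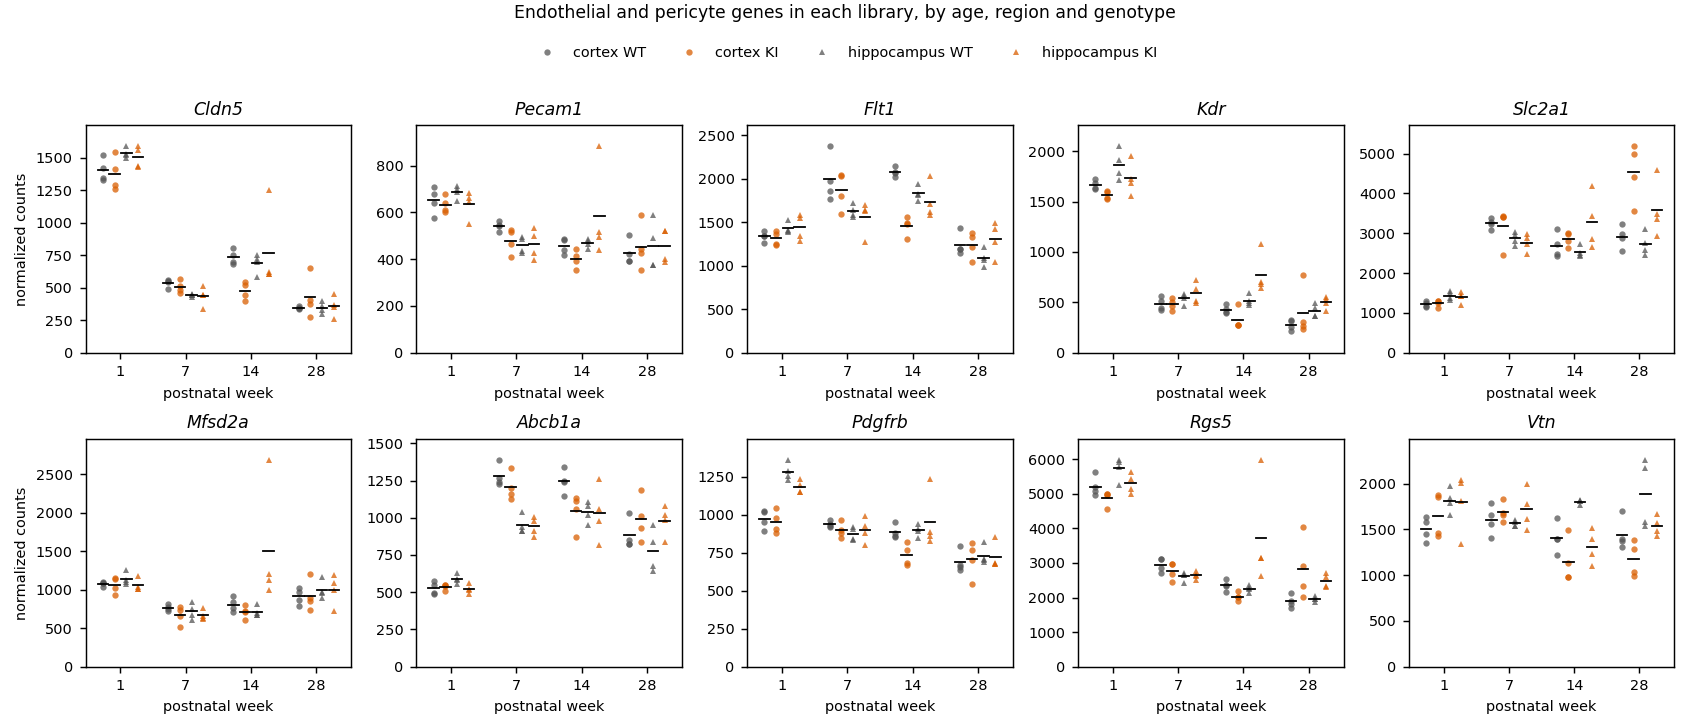
Normalized counts of the 10 genes in each of the 64 libraries, with 1 panel per gene, postnatal week on the horizontal axis (4 ages at equal steps) and the mean of each group of 4 mice as a black bar. Cortex is drawn as circles, hippocampus as triangles, WT in grey and KI in orange, and the single KI hippocampal library far above its group at PWK 14 is visible for *Cldn5*, *Pecam1*, *Kdr*, *Mfsd2a*, *Pdgfrb* and *Rgs5*.

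The course after birth was then examined in WT mice by comparing successive ages (limma on log2 values, with Benjamini-Hochberg adjustment over all genes tested and a call at an adjusted p under 0.05). The step from PWK 1 to PWK 7 moved 8 of the 10 genes in cortex and all 10 in hippocampus, in a tissue where 65.3% and 61.3% of all genes were called. Neighbouring comparisons share the libraries of the middle age, and age cannot be told apart from other differences between the groups of mice used at each age.

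*Cldn5*, the main tight junction protein of brain endothelium, averaged 1405 ± 87.6 normalized counts (SD, n = 4) in cortex at PWK 1, 536 ± 33.5 at PWK 7, 736 ± 56.0 at PWK 14 and lastly 347 ± 12.0 at PWK 28. It was 1534 ± 38.0, 443 ± 8.42, 689.7 ± 73.2 and 345 ± 42.2 in hippocampus. The 3 steps were called in both regions with the same directions. *Cldn5* fell by 1.39 on the log2 scale in cortex and by 1.79 in hippocampus up to PWK 7 (limma adjusted p = 4.71e-09 and 2.73e-10), rose by 0.46 and 0.63 up to PWK 14 (0.00438 and 0.0115), and fell by 1.08 and 1.00 up to PWK 28 (3.13e-05 and 0.00129). *Pecam1*, an adhesion molecule of endothelial cell contacts also carried by platelets and leukocytes, averaged 652 ± 56.9 in cortex at PWK 1 and 427 ± 53.9 at PWK 28. It fell only in the first step, by 0.26 in cortex and 0.58 in hippocampus (adjusted p = 0.00756 and 1.98e-05), and later steps were not called (adjusted p = 0.0663 or more in both regions).

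The VEGF receptors took opposite courses in the first step. *Kdr* (VEGFR2), the receptor that carries most of the growth signal of VEGF-A, averaged 1665 ± 44.1 in cortex at PWK 1, 485 ± 59.8 at PWK 7, 428 ± 40.6 at PWK 14 and lastly 278 ± 49.6 at PWK 28, and 1867 ± 148, 538 ± 51.9, 518 ± 49.9 and 416 ± 63.0 in hippocampus. It fell by 1.78 and 1.79 in the first step (adjusted p = 2.94e-09 and 8e-09), and again from PWK 14 to PWK 28 in cortex, by 0.64 (0.00838). In the hippocampus that last difference was -0.32 and was not called (0.0961), except without WT replicate 3 of PWK 28 (-0.41, adjusted p = 0.0473). *Flt1* (VEGFR1), which binds VEGF-A tightly and limits its access to *Kdr*, averaged 1337 ± 58.1, 1993 ± 269, 2078 ± 54.3 and 1241 ± 132 in cortex at the 4 ages and 1429 ± 66.8, 1628 ± 72.1, 1831 ± 83.3 and 1091 ± 95.4 in hippocampus. It rose by 0.57 and 0.19 in the first step (adjusted p = 6.25e-05 and 0.00684) and fell by 0.75 in both regions from PWK 14 to PWK 28 (0.000188 and 0.000375).

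Of the transporters, the glucose transporter *Slc2a1* (GLUT1, also made by astrocytes and choroid plexus) averaged 1217 ± 71.6 in cortex at PWK 1, 3245 ± 127 at PWK 7, 2677 ± 309 at PWK 14 and lastly 2909 ± 279 at PWK 28. In hippocampus it averaged 1434 ± 101, 2870.1 ± 164, 2526 ± 141 and 2718 ± 284. It rose by 1.42 in cortex and 1.00 in hippocampus in the first step (adjusted p = 7.51e-10 and 7.86e-08), and fell in cortex by 0.28 from PWK 7 to PWK 14 (0.0385). The latter call was made in 2 of the 8 fits without 1 library, and was lost without either of WT replicates 1 and 2 of PWK 14 or any 1 of the PWK 7 mice (adjusted p = 0.0567 to 0.105). *Abcb1a*, the efflux pump P-glycoprotein that returns drugs to the blood, averaged 526 ± 43.0, 1280.4 ± 74.0, 1244 ± 80.5 and 882 ± 101 in cortex and 589 ± 28.7, 949 ± 60.2, 1039.6 ± 68.4 and 776 ± 144 in hippocampus. It rose by 1.28 and 0.69 in the first step (adjusted p = 1.54e-08 and 2.42e-06) and fell by 0.50 and 0.44 in the last (0.00279 and 0.0394). The hippocampal fall was called in 1 of the 8 fits without 1 library, namely that without WT replicate 3 of PWK 28, and reached an adjusted p of 0.103 in the others. *Mfsd2a*, a carrier of lysophospholipids that also keeps vesicle traffic across the endothelium low, averaged 1077 ± 33.5, 762 ± 40.8, 805 ± 94.2 and 913 ± 107 in cortex and 1139 ± 84.0, 718 ± 101, 710.5 ± 65.8 and 998 ± 119.7 in hippocampus. It was the only transporter of the 3 that fell in the first step, by 0.50 in cortex and 0.67 in hippocampus (adjusted p = 7.82e-06 and 8.32e-05), and it rose in hippocampus by 0.49 from PWK 14 to PWK 28 (0.0114), where the cortical difference was 0.18 and not called (0.263). Whether that step differed between the regions was not tested.

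Among the pericyte genes, *Rgs5*, a regulator of G protein signalling made by pericytes and smooth muscle, averaged 5215 ± 291, 2952 ± 204, 2349.8 ± 146 and 1886 ± 175 in cortex and 5738 ± 331, 2611 ± 128, 2258 ± 100.2 and 1959.8 ± 71.8 in hippocampus. Its level was lower at each later age in both regions. The steps in cortex were falls of 0.82, 0.33 and 0.32 (adjusted p = 1.24e-07, 0.00928 and 0.014). In hippocampus the falls of 1.14 in the first step and 0.20 in the last were called (9.9e-09 and 0.0257), the last in 3 of the 8 fits without 1 library (adjusted p up to 0.0829, lost without WT replicate 1 or 4 of PWK 14 or WT replicate 1, 2 or 4 of PWK 28). *Pdgfrb* (ENSMUSG00000024620, on the plus strand at chr18:61045150-61085061) encodes the receptor through which endothelial PDGF-B holds pericytes on the vessel and is also made by fibroblasts. It averaged 973 ± 63.5, 936 ± 21.7, 887 ± 47.2 and 688 ± 73.7 in cortex and 1284 ± 56.7, 875 ± 45.0, 896 ± 36.2 and 728 ± 62.2 in hippocampus. It fell in the first step in hippocampus, by 0.55 (adjusted p = 4.94e-06), and in the last step in both regions, by 0.37 in cortex and 0.30 in hippocampus (0.0119 and 0.0225, the latter lost in 5 of the 8 fits without 1 library, those without WT replicate 2 or 4 of PWK 14 or WT replicate 1, 2 or 4 of PWK 28, with an adjusted p up to 0.0728). *Vtn*, the secreted adhesion protein vitronectin that pericytes deposit around capillaries, was at 1506 ± 128, 1604 ± 158, 1408 ± 167 and 1444 ± 177 in cortex, where no step was called. In hippocampus it averaged 1813 ± 132, 1565 ± 33.4, 1799 ± 20.9 and 1887 ± 382, with a fall of 0.21 in the first step (adjusted p = 0.00596) and a rise of 0.20 in the second (0.0326) that was lost in each of the 8 fits without 1 library (adjusted p = 0.0528 to 0.0964).

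In the second step 3 of the 10 genes were called in cortex and 2 in hippocampus, against 5.32% and 1.99% of all genes. In the last step 6 were called in each region, against 12% and 8.11%, and all 6 in cortex and 5 of the 6 in hippocampus were lower at PWK 28. Over the last step the endothelial reference list summed to 3010.2 to 3347 in cortex at PWK 14 and 2154 to 2679 at PWK 28, so it was lower in each of the 4 older mice as well. The median log2 difference of the 10 genes was -0.34 in cortex and -0.25 in hippocampus, where the median over all genes tested was -0.0051 and -0.0086.

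**Figure D2:**
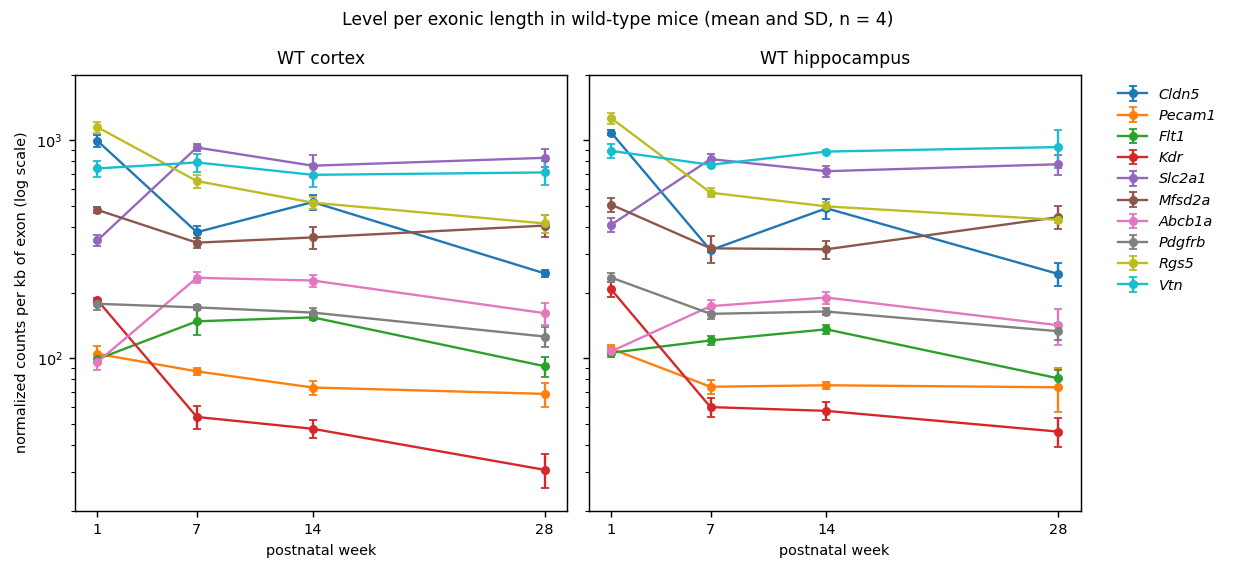
Mean normalized counts per kilobase of exon in WT cortex (left) and WT hippocampus (right) against postnatal week, on a log axis, with 1 line per gene and bars for the SD of 4 mice. *Slc2a1* and *Abcb1a* climb between PWK 1 and PWK 7 while *Kdr*, *Cldn5* and *Rgs5* drop, and *Cldn5* peaks again at PWK 14.

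The regions were compared within WT mice of each age. Both regions came from the same 4 mice at an age, and their libraries were treated as separate samples, since the numbering by mouse is not given. At PWK 1 the hippocampus had more of 4 of the 10 genes (34.7% of all genes were called), at PWK 7 less of 6 (40.8%), at PWK 14 more of 2 and less of 2 (34.6%), and at PWK 28 more of 2 (37.8%). The share of the 10 that was called lay near or below that of all genes at every age but PWK 7. The count at PWK 1 depended on the scaling, with 9 genes called after scaling each library to its total and 2 after correction for GC content and length. At PWK 1 the largest of these differences was that of *Pdgfrb*, at 1257, 1360.3, 1289 and 1229 in the 4 hippocampal libraries and 1027, 953, 1019 and 891 in the cortical ones. All hippocampal values were above all cortical values, a log2 difference of 0.40 (SE 0.059, limma adjusted p = 0.000299). *Vtn* (0.27, adjusted p = 0.0117), *Slc2a1* (0.24, 0.0124) and *Kdr* (0.16, 0.0471) were also higher in hippocampus. The call for *Kdr* was made in only 1 of the 8 fits without 1 library, that without hippocampal replicate 4, with an adjusted p up to 0.13 in the others. Leaving out 1 library added *Cldn5* (without cortical replicate 1, adjusted p = 0.0168), *Abcb1a* (without cortical replicate 3, 0.0487) and *Rgs5* (without cortical replicate 3 or hippocampal replicate 4, 0.0273 and 0.0203). At PWK 7 the efflux pump *Abcb1a* differed most, with 910.2, 938, 1037 and 912 in hippocampus against 1388, 1267, 1226 and 1239.8 in cortex. These ranges did not overlap, and the log2 difference was -0.43 (SE 0.061, adjusted p = 0.000146). *Flt1* (-0.28, adjusted p = 0.0155), *Cldn5* (-0.27, 0.00619), *Pecam1* (-0.24, 0.0183), *Slc2a1* (-0.18, 0.013) and *Rgs5* (-0.18, 0.0266) were lower in hippocampus as well. The calls for *Pecam1* and *Rgs5* depended on single libraries, since *Pecam1* was lost without replicate 1 of either region (adjusted p up to 0.0542) and *Rgs5* without cortical replicate 1 or 3 or hippocampal replicate 2 (up to 0.0824).

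At PWK 14 and PWK 28 *Vtn* and *Kdr* were the genes called as higher in hippocampus, while neither was called at PWK 7 (adjusted p = 0.743 and 0.251). *Vtn* was at 1807, 1816, 1805 and 1769 in the 4 WT hippocampal libraries of PWK 14 and at 1390.1, 1216, 1624 and 1399 in the cortical ones, without overlap (log2 difference 0.36, SE 0.075, adjusted p = 0.00267). *Vtn* was again higher at PWK 28 (0.37, adjusted p = 0.0416), where the regions overlapped and the call was lost in 5 of the 8 fits without 1 library (cortical replicates 2, 3 and 4 and hippocampal replicates 1 and 3, adjusted p up to 0.119). *Kdr* was higher by 0.27 at PWK 14 (adjusted p = 0.0367, with overlap, and lost without cortical replicate 1, 2 or 3 or hippocampal replicate 1 or 3, up to 0.099) and by 0.59 at PWK 28 (0.0061, without overlap and in all 8 fits without 1 library), at 362, 366, 493 and 441 in hippocampus against 322, 253, 220.0 and 315 in cortex. *Abcb1a* and *Flt1* were lower in hippocampus at PWK 14 as well, with log2 differences of -0.26 and -0.18 (adjusted p = 0.00977 and 0.0127), and were not called at PWK 28 (0.239 and 0.101, *Flt1* with the exception of the fit without hippocampal replicate 3, at 0.042). The part of choroid plexus tissue, which was carried along unevenly in these libraries, in the regional differences of *Vtn* and *Slc2a1* was not tested.

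KI mice were compared with their WT littermates in each region and at each age. At PWK 1 and PWK 7 none of the 10 genes was called in either region. All log2 differences lay between -0.20 (*Mfsd2a*, cortex at PWK 7) and 0.13 (*Vtn*, hippocampus at PWK 7), and all adjusted p were 0.617 or more (limma). At an unadjusted p under 0.05, 0 of the 10 passed in cortex and 2 in hippocampus at PWK 1, where 5.27% and 5.46% of all genes did. At PWK 7, 1 passed in cortex and 0 in hippocampus, against 8.05% and 6.22% of all genes. Calls were rare over the whole table at these ages, at 0.00546% in cortex and 0.0109% in hippocampus at PWK 1 and 0.00545% and 0.0218% at PWK 7. For the barrier genes, *Cldn5* at PWK 1 was 1377 ± 129 in KI and 1405 ± 87.6 in WT cortex (95% interval of the log2 difference -0.19 to 0.12), and *Slc2a1* at PWK 7 was 3176 ± 475 and 3245 ± 127 (-0.24 to 0.15).

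At PWK 14 the cortex of KI mice had less *Cldn5* and less *Flt1*. These were 2 of the 10 genes, where 5.18% of all genes were called, and the median log2 difference of the 10 was -0.27 against -0.0018 over all genes. *Cldn5* was at 394, 445, 520.1 and 542 normalized counts in the 4 KI libraries and at 756, 700.4, 683 and 806 in the 4 WT libraries. Each KI value was below each WT value. The means were 475 ± 68.3 and 736 ± 56.0 (SD, n = 4), a fall of 0.64 on the log2 scale (SE 0.11, adjusted p = 0.00867), or 0.642 times the WT level. *Flt1* was at 1477, 1312, 1491 and 1559 in KI and at 2078, 2016, 2071 and 2148 in WT. The groups were again apart, with means of 1459.5 ± 105 and 2078 ± 54.3 and a fall of 0.51 (SE 0.063, adjusted p = 0.00239). Both calls were made in each of the 8 fits without 1 library.

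The other 8 genes were not called in cortex at PWK 14, and 7 of them were lower in KI on average. *Kdr* was at 484, 271, 279.7 and 274 in KI and 433, 390.3, 407 and 483 in WT, so 3 KI mice were below all WT mice and replicate 1 was above them (-0.43, adjusted p = 0.186). Without that library *Kdr* was called (-0.63, adjusted p = 0.00493), and so were the pericyte genes *Pdgfrb* (-0.33, 0.033) and *Rgs5* (-0.25, 0.0444), which brought the count to 5 of 10, with 4.65% of all genes called in that fit. The same library had 12404 normalized counts of *Gfap*, the marker filament of reactive astrocytes (4322 to 5221 in the other 3 KI mice), and 4536 of the water channel *Aqp4* (2535 to 2685). With all libraries *Pdgfrb* was 734 ± 72.3 in KI and 887 ± 47.2 in WT (-0.28, 0.0777), and *Rgs5* 2027 ± 121 and 2349.8 ± 146 (-0.21, 0.0879). *Vtn* (1145 ± 241 against 1408 ± 167, -0.31, 0.208) was called only without KI replicate 4 (-0.45, 0.0325). *Abcb1a* (-0.26, 0.121), *Pecam1* (-0.19, 0.288) and *Mfsd2a* (-0.19, 0.355) were not called in any fit without 1 library. *Slc2a1* alone of the 10 had a higher mean in KI, at 2858 ± 172 against 2677 ± 309 (0.10, 0.55).

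The endothelial reference list moved in the same direction in these libraries, with sums of 2503 to 2757 in KI and 3010.2 to 3347 in WT and no overlap, and the mural list summed to 3059 to 4162 and 3557 to 3757. The genes were also taken relative to the mean log2 level of the endothelial reference list in the same library. On that scale the median of all genes was shifted by 0.34 and 55.2% of them were called, nearly all as higher. *Cldn5* was still lower in KI (-0.30, adjusted p = 0.0318) and so was *Flt1* (-0.17, 0.0412), both by less than without the scaling. *Slc2a1* was called as higher (0.44, 0.00198), close to the shift of all genes. The other 7 genes were not called, and of those with a lower mean in KI all but *Kdr* lay above 0 on that scale, at 0.03 for *Vtn* to 0.16 for *Mfsd2a*, so their direction depended on the scaling. Red blood cell genes summed to 3669 to 6951 in KI and 6016 to 9516 in WT with 0 of 5 called, and astrocyte genes to 134823 to 159825 and 139911 to 167564. Among the astrocyte genes *Gfap* rose by 1.56 (adjusted p = 0.0112) and *Aldh1l1* by 0.34 (0.0121), while *Slc1a3*, a glutamate transporter, fell by 0.36 (0.0203). The part of these cells in the results was not tested.

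In the hippocampus at PWK 14, 3 of the 10 genes were called (15.6% of all genes), with *Mfsd2a* and *Kdr* higher and *Vtn* lower in KI. *Mfsd2a* was at 2687, 1207, 1132 and 992 in KI and 693, 675, 666 and 808 in WT. All KI values were above all WT values, and replicate 1, the library that stood apart on the cell type lists, was more than 2 times as high as any other. The means were 1504 ± 793 and 710.5 ± 65.8, with a log2 difference of 0.96 (SE 0.27, adjusted p = 0.0384). Without replicate 1 it was 0.64 (adjusted p = 0.00218). *Kdr* was at 1075, 705, 678 and 642 in KI and 511, 476, 589 and 493 in WT, likewise without overlap. Its means were 775 ± 202 and 518 ± 49.9 (0.55, SE 0.16, adjusted p = 0.0412), and without replicate 1 the difference was 0.39 (adjusted p = 0.0189). Both calls were lost in 6 of the 8 fits without 1 library, those without KI replicate 2 or 3 or without any 1 of the WT mice, with adjusted p up to 0.0981 and 0.11. That of *Kdr* was also lost with scaling to the library total (0.0552), and with a replicate block both were lost (0.0542 for *Mfsd2a* and 0.0606 for *Kdr*).

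*Vtn* moved the other way in the same libraries. It was at 1233, 1095, 1397 and 1512 in KI and at 1807, 1816, 1805 and 1769 in WT, and replicate 1 was not the highest of the KI mice. The means were 1309 ± 183 and 1799 ± 20.9, a fall of 0.47 (SE 0.094, adjusted p = 0.0112) that was called in all 8 fits without 1 library. Without replicate 1 the difference of *Vtn* was -0.44 (adjusted p = 0.0149). The other pericyte genes did not fall with it. *Rgs5* was at 5985, 3159, 3146 and 2632 in KI and 2288, 2127, 2368 and 2251 in WT, with no overlap (0.65, SE 0.21, adjusted p = 0.0671), and it was called as higher without replicate 1 (0.40, 0.00773) or replicate 4 (0.79, 0.0356). *Pdgfrb* was 952 ± 190.3 in KI and 896 ± 36.2 in WT (0.069, 95% interval -0.20 to 0.34), and the difference was -0.063 without replicate 1. *Slc2a1* was 3288 ± 689 and 2526 ± 141 (0.36, adjusted p = 0.0882), and called among the fits without 1 library only in that without KI replicate 4 (0.45, 0.0377), with 0.23 (0.0996) without replicate 1. The remaining genes were *Cldn5* (0.089, adjusted p = 0.819, and -0.17 without replicate 1), *Pecam1* (0.26, 0.378, and 0.044 without it), *Flt1* (-0.084, 0.535, and -0.042) and *Abcb1a* (-0.030, 0.893, and -0.13). The median of the 10 was 0.18 against 0.0060 over all genes. It rested on replicate 1, since without that library it was 0.0014 against 0.0015 over all genes, with 4 of the 10 genes and 17.4% of all genes called.

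Relative to the endothelial reference list, where the median of all genes was shifted by -0.11 and 3.83% were called, *Mfsd2a* was still called in this group (0.85, adjusted p = 0.0199), while *Kdr* (0.44, 0.287) and *Vtn* (-0.58, 0.187) were not. Relative to the mural list, where the shift was -0.27 and 19.7% were called, *Vtn* was called (-0.74, 0.00783). The astrocyte list was higher in every KI than in every WT library of this group (210898 to 337089 against 138215 to 164490.0), and *Gfap* rose by 2.75 (adjusted p = 0.00129), or by 2.36 without replicate 1 (3.63e-06). The part of these other cells in the differences of *Mfsd2a*, *Kdr* and *Vtn* was not tested.

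**Figure D3:**
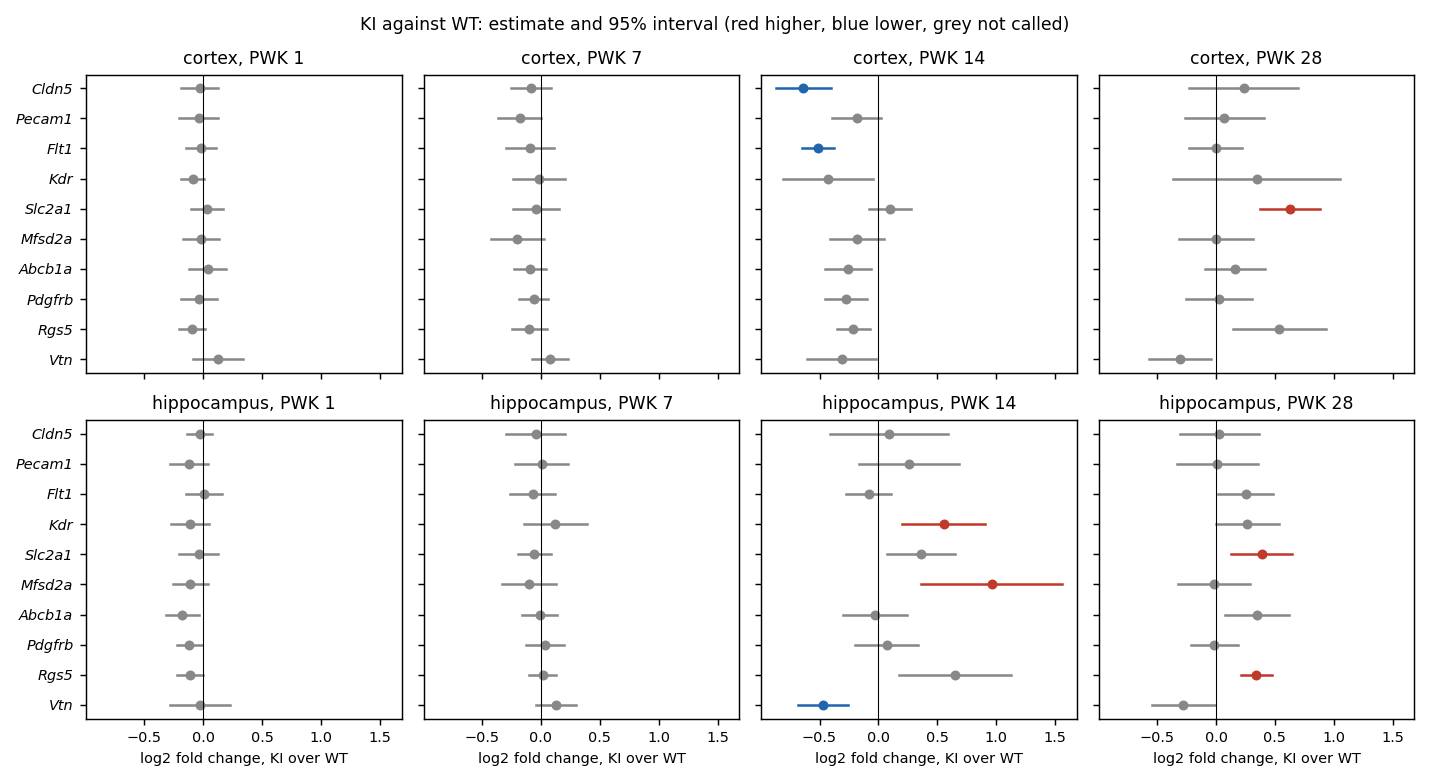
Log2 difference of KI from WT for the 10 genes (points) with its 95% interval (lines), in cortex (upper row) and hippocampus (lower row) at PWK 1, 7, 14 and 28. Red marks genes called higher, blue genes called lower and grey genes not called. No gene is coloured at PWK 1 or 7, and *Cldn5* and *Flt1* are blue in cortex at PWK 14.

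At PWK 28 the glucose transporter *Slc2a1* was called as higher in KI in both regions, but the hippocampal call (limma adjusted p = 0.0488) was fragile, as given below. In cortex it was the only gene of the 10 to be called, where 22.2% of all genes were. *Slc2a1* was at 5185, 3553, 4401 and 4982 in KI cortex and at 3225, 2551, 2976 and 2884 in WT cortex. Each KI value was above each WT value, and the means of 4530.1 ± 732 and 2909 ± 279 differed by 0.63 on the log2 scale (SE 0.11, adjusted p = 0.00396), 1.55 times the WT level. The call was made in all 8 fits without 1 library. Relative to the endothelial reference list, where the median of all genes was shifted by -0.34 and 33.8% were called, the difference was 0.29 (adjusted p = 0.0868) and not called.

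*Rgs5* in cortex at PWK 28 was at 4054, 2012, 2906 and 2328 in KI and 2120.0, 1907, 1710.4 and 1807 in WT, so 1 KI mouse lay within the WT range. Its difference of 0.54 (SE 0.18) had an adjusted p of 0.0545, and among the fits without 1 library was called in 1, that without KI replicate 2 (0.68, 0.0102). Without KI replicate 1 it was 0.34 (0.0736), and the adjusted p of the other fits reached 0.129. *Vtn* was 1174 ± 189.7 against 1444 ± 177 (-0.31, 0.0955) and was called as lower relative to the endothelial reference list (-0.64, 0.00364), beyond the shift of all genes. *Kdr* was at 772, 269, 234 and 301 in KI, where replicate 1 was more than 2 times as high as the next, and at 322, 253, 220.0 and 315 in WT (0.34, 0.478, and -0.04 without that library). *Cldn5* and *Flt1*, which were lower in KI at PWK 14, were 428 ± 161 against 347 ± 12.0 (0.23, 95% interval -0.23 to 0.69) and 1241 ± 149 against 1241 ± 132 (-0.0024, -0.23 to 0.22). The remaining *Pecam1*, *Mfsd2a*, *Abcb1a* and *Pdgfrb* had differences between 0.00022 and 0.16. Beside these values, the endothelial reference list summed to 2483 to 3389.6 in KI and 2154 to 2679 in WT, the mural list to 3692 to 6803 and 3082 to 3738, and the red blood cell list to 3255 to 6609 and 8514 to 9786, with all 5 red blood cell genes called lower. The choroid plexus list summed to 379 to 1116 and 492 to 22005. Their part in the difference of *Slc2a1* was not tested.

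In the hippocampus at PWK 28, 2 of the 10 genes were called (15.8% of all genes), and both were higher in KI. *Rgs5* was at 2701, 2305, 2346 and 2606 in KI and 1961, 1949.7, 2052 and 1877 in WT. The groups did not overlap, the means were 2489.6 ± 194 and 1959.8 ± 71.8, and the difference of 0.34 (SE 0.060, adjusted p = 0.00342) was called in all 8 fits without 1 library. It was lost when all 64 libraries were fitted together (adjusted p = 0.0578). It was also not called relative to the endothelial reference list (0.078, 0.74), where the median of all genes was shifted by -0.26 and 13.7% were called. Relative to the mural list it was not called either (0.21, 0.229), where the shift was -0.13 and 8.89% were called. *Slc2a1* was at 3472, 3355, 2934 and 4589.6 in KI and 2763, 2444, 3096 and 2570.3 in WT. Here the groups overlapped, since KI replicate 3 was below WT replicate 3, and the difference of 0.39 (SE 0.12, adjusted p = 0.0488) was lost without any 1 of replicates 1, 2 and 4 of either genotype (adjusted p = 0.0634 to 0.122). It was also lost with no filter (0.063), total-sum scaling (0.0783), the GC content and length correction (0.0805) and a replicate block (0.0728). Relative to the endothelial reference list *Slc2a1* was not called (0.12, 0.592). *Abcb1a* was 981 ± 102 in KI and 776 ± 144 in WT (0.35, 0.0793) and was called without KI replicate 2 (0.0465) or WT replicate 3 (0.0259). *Flt1* was 1308 ± 202 and 1091 ± 95.4 (0.25, 0.139), and was called without KI replicate 2 (0.36, 0.0183). *Kdr* (0.27, 0.169) and *Vtn* (-0.28, 0.151) were not called, though *Vtn* was called as lower relative to the endothelial reference list (-0.54, 0.0157) and to the mural list (-0.41, 0.0409). *Cldn5*, *Pecam1*, *Mfsd2a* and *Pdgfrb* had differences between -0.015 and 0.028. In these libraries the endothelial reference list summed to 2469.6 to 3418 in KI and 2214 to 2712 in WT, the astrocyte list to 194247 to 225856 and 139498 to 148863, and the microglia and macrophage list to 8785 to 9366 and 6846 to 8068. Their part in the results was not tested.

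**Figure D4:**
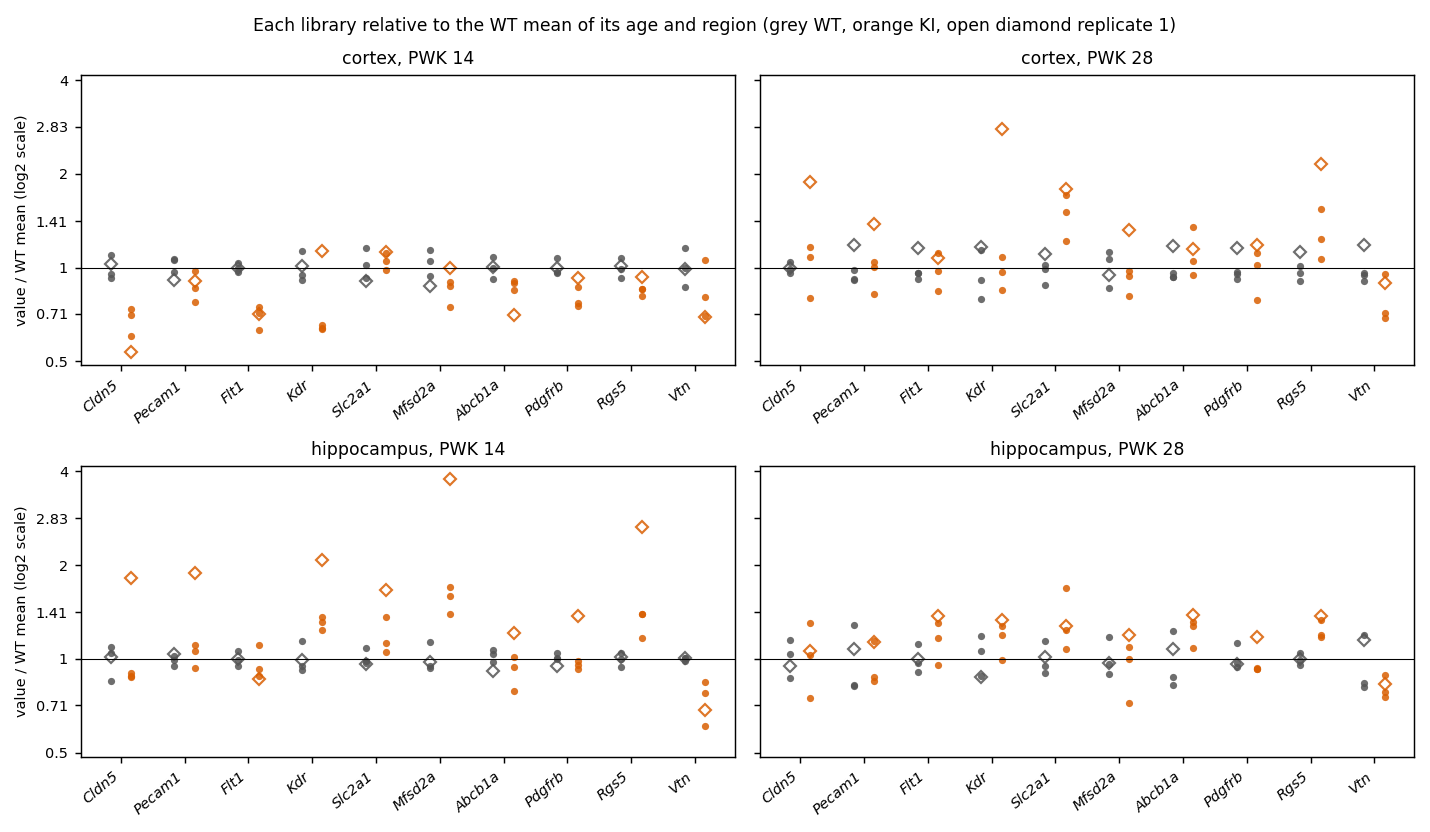
Value of each library divided by the WT mean of its region and age, on a log2 axis, for the 10 genes in the 4 comparisons at PWK 14 and 28. Grey marks WT and orange KI, and open diamonds mark replicate 1 of each group. In KI hippocampus at PWK 14, replicate 1 is the highest library for 8 of the 10 genes but not for *Flt1* or *Vtn*, and the 4 KI libraries lie below all WT libraries for *Vtn*.

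Whether the KI effect differed between the regions was tested by the interaction of genotype and region in the 16 libraries of each age. At PWK 14 it differed for 2 of the 10 genes (2.85% of all genes), both VEGF receptors. Both regions came from the same mice, and with a block on the replicate number, which may or may not mark the mouse, 4 genes were called (3.93% of all genes), namely *Kdr* (adjusted p = 0.00428), *Flt1* (0.0422), *Mfsd2a* (0.0272) and *Rgs5* (0.0291). For *Kdr* the effect was -0.43 in cortex and 0.55 in hippocampus, a difference of 0.98 (SE 0.25, limma adjusted p = 0.0463), and for *Flt1* it was -0.51 and -0.084, a difference of 0.43 (SE 0.11, 0.0391). The calls were fragile, since that for *Kdr* was made in 3 of the 16 fits without 1 library (those without KI replicate 1 of cortex, or KI replicate 2 or 4 of hippocampus) and that for *Flt1* in 7 of them (those without KI replicate 1 or 4 of cortex, any 1 of the KI replicates of hippocampus, or WT replicate 4 of hippocampus), with adjusted p up to 0.096 and 0.083 otherwise. *Mfsd2a* (1.15, 0.0562) and *Rgs5* (0.86, 0.0598) were not called, but were without the library that stood apart (0.83, 0.00646 and 0.61, 0.00377) or without KI replicate 4 of hippocampus (0.0215 and 0.0174), *Mfsd2a* also without KI replicate 1 of cortex (0.048). *Cldn5*, called in cortex only, had an interaction of 0.73 (95% interval 0.17 to 1.28, adjusted p = 0.151), so a regional difference was not shown for it. *Vtn* was lower in KI in both regions on average, with a difference between them of -0.16 (0.691). At PWK 28 no member was called (4.57% of all genes, members' adjusted p = 0.426 or more), and *Slc2a1* had an interaction of -0.24 (-0.63 to 0.14).

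The change of the KI effect from PWK 14 to PWK 28 was tested in the same way within each region. In cortex (0%) and hippocampus (0%), 0 genes of the whole table were called. At an unadjusted p under 0.05, 2770 genes (15.1%) passed in cortex and 2274 (12.4%) in hippocampus, 5 and 2 of the 10 among them. The count of 0 depended on the fit, with 914 genes in cortex and 470 in hippocampus called when all 64 libraries were fitted together, 908 in cortex with sample quality weights, 9 in cortex with total-sum scaling and 2 in hippocampus with a replicate block. In cortex the estimates were above 0 for all 10 genes, with 0.51 for *Flt1* (limma adjusted p = 0.0939), 0.87 for *Cldn5* (0.139), 0.75 for *Rgs5* (0.129) and 0.53 for *Slc2a1* (0.137). *Flt1* was called without KI replicate 1 of PWK 14 (0.0454), and *Flt1*, *Slc2a1* and *Rgs5* were called once KI replicate 2 of PWK 28 was left out (0.0347, 0.0107 and 0.0113). In hippocampus the estimate furthest from 0 was that of *Mfsd2a*, at -0.98 (0.241).

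Other genes of the same vessels were read from 8 further lists, and none of their genes was called at PWK 1 or PWK 7. In cortex at PWK 14, where 5.18% of all genes were called, 1 of the 10 endothelial reference genes was called, the transcription factor *Sox17*, which fell by 0.87 (limma adjusted p = 0.0083). None of 8 further tight junction and adhesion genes was called, and the median of that list was -0.21. Of 12 further barrier transporters 3 were called, with the organic anion transporters *Slco1c1* and *Slco1a4* lower by 0.50 (0.0131) and 0.28 (0.035) and the monocarboxylate transporter *Slc16a1* higher by 0.32 (0.0339). Of 13 VEGF and angiopoietin genes 2 were called, the ligands *Apln* and *Angpt1*, which fell by 0.56 (0.0267) and 0.52 (0.0397). The list of 14 mural genes had 1 called, the proteoglycan *Cspg4* (NG2), which fell by 0.37 (0.0132) and is also made by oligodendrocyte precursors. None of 10 basement membrane genes was called in this group.

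In the other 3 late comparisons the called genes of these lists were mostly higher in KI, where 22.2% (cortex at PWK 28), 15.6% (hippocampus at PWK 14) and 15.8% (hippocampus at PWK 28) of all genes were called. Of the endothelial reference genes 2 of 10 were called in cortex (PWK 28), and 0 at PWK 14 and 2 at PWK 28 in hippocampus, where *Erg* and *Egfl7* rose by 0.52 (adjusted p = 0.0419) and 0.45 (0.00912). Of the 8 tight junction and adhesion genes, the scaffold protein *Tjp1* (ZO-1) fell by 0.29 (0.0174) in cortex at PWK 28, the adhesion molecule *Jam2* rose by 0.33 (0.00171) in hippocampus at PWK 28, and none was called in hippocampus at PWK 14 (without the library that stood apart *Jam2* was, at 0.29, 0.0228). Basement membrane genes were called in 5 of 10 in cortex (PWK 28), and in 5 of 10 at PWK 14 and 2 of 10 at PWK 28 in hippocampus, each of them higher. *Col4a1*, a chain of the collagen network of the vessel wall, rose by 0.94 (4098 against 2071 normalized counts, adjusted p = 0.00441), 1.02 (5209 against 2539, 0.00252) and 0.48 (3198 against 2293, 0.000549). Among the barrier transporters 6 of 12 in cortex (PWK 28), and 5 at PWK 14 and 3 at PWK 28 in hippocampus, were called, again all higher. At PWK 28 in hippocampus these shares lay near that of all genes. The glutamine transporter *Slc38a5* rose by 2.03 (347 against 79.4, 0.00384) and 1.22 (173 against 72.1, 0.00162) in hippocampus, and *Slco1a4*, lower in cortex at PWK 14, rose by 0.53 (0.00194) in hippocampus at PWK 28. Without the hippocampal library that stood apart, *Col4a1* and *Slc38a5* were higher by 0.92 (0.00179) and 1.77 (0.00236) at PWK 14, and 5 of 10 basement membrane genes and 6 of 12 transporters were called. That recount was chosen after the library had been seen to stand apart, and 17.4% of all genes were called in it.

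Genes of endothelial activation and leak, a list of 9 of which 7 are in the table, were called in 4, 3 and 3 of 7 in the same order. Of all genes, 22.2%, 15.6% and 15.8% were called in these 3 comparisons. The leukocyte adhesion molecule *Icam1* rose by 1.06 (0.0132) in cortex at PWK 28 and 1.28 (0.0245) in hippocampus at PWK 14, the clotting protein *Vwf* rose by 0.89 (0.00509) and 0.61 (0.00346) at PWK 28, and *Plvap*, a diaphragm protein of leaky capillaries, fell by 0.46 (0.036) in cortex at PWK 28. In the mural list, *Notch3*, a receptor of smooth muscle and pericytes, rose by 0.91 (0.00467) and 0.69 (0.0131) in hippocampus, and the smooth muscle protein *Tagln* by 3.31 (1340.0 against 111, 0.00142) in cortex at PWK 28. That list had 3, 2 and 3 of 14 genes called, all higher, which lay near the share of all genes. The 2 in hippocampus at PWK 14 were *Notch3* and *Pdgfb*. In hippocampus at PWK 14 without the library that stood apart, 5 of 7 activation and leak genes and 3 of 14 mural genes were called (17.4% of all genes). In that fit *Icam1* and *Notch3* were higher by 0.94 (0.0086) and 0.75 (0.00104). Ligands of the vessel wall went both ways. *Vegfa*, the ligand of *Kdr* and *Flt1*, fell by 0.24 (limma adjusted p = 0.0155) in hippocampus at PWK 28. *Angpt2*, which loosens the contact of pericytes with the vessel, rose by 1.81 (158 against 42.9, 0.00281) in hippocampus at PWK 14, *Angpt1*, which tightens it, by 0.51 (0.00433) in hippocampus at PWK 28, and *Vegfb* fell by 0.39 (0.0235) in cortex at PWK 28 and 0.60 (0.00239) in hippocampus at PWK 14. Without the library that stood apart *Angpt2* was higher by 1.82 (0.00291) and *Vegfb* lower, at -0.59 (0.00234). Of the 13 VEGF and angiopoietin genes, 2, 5 and 2 were called in these 3 comparisons, and 6 in hippocampus at PWK 14 without that library. Both counts at PWK 28 lay near or below the share of all genes.

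Of the Wnt ligands that neural cells send to the endothelium to maintain the barrier, *Wnt7a* and *Wnt7b* went in opposite directions. *Wnt7a* fell in each of the 4 late comparisons, by 0.57 (adjusted p = 0.0219) and 0.62 (0.0175) in cortex at PWK 14 and 28 and by 1.02 (213 against 428, 0.00272) and 0.61 (0.00435) in hippocampus. *Wnt7b* rose by 0.42 (0.0205) in cortex at PWK 28 and by 0.60 (0.0244) and 0.48 (0.00928) in hippocampus. Both ligands are made mainly by neurons and glia in the brain. *Axin2*, a target of the pathway in many cell types, fell by 0.39 (0.0232) in cortex (PWK 28) and 0.49 (0.027) in hippocampus (PWK 14). *Apcdd1*, a barrier-related target, rose by 0.88 (0.00414) in cortex at PWK 28. Without the library that stood apart, *Wnt7a*, *Wnt7b* and *Axin2* differed by -1.03 (0.00231), 0.45 (0.00883) and -0.41 (0.0356) in hippocampus at PWK 14, where 4 of the 13 genes were then called (17.4% of all genes). In all, 1, 5, 4 and 4 of 13 genes of this list were called in cortex at PWK 14 and 28 and hippocampus at PWK 14 and 28. Of all genes, 5.18%, 22.2%, 15.6% and 15.8% were called in these comparisons.

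**Figure D5:**
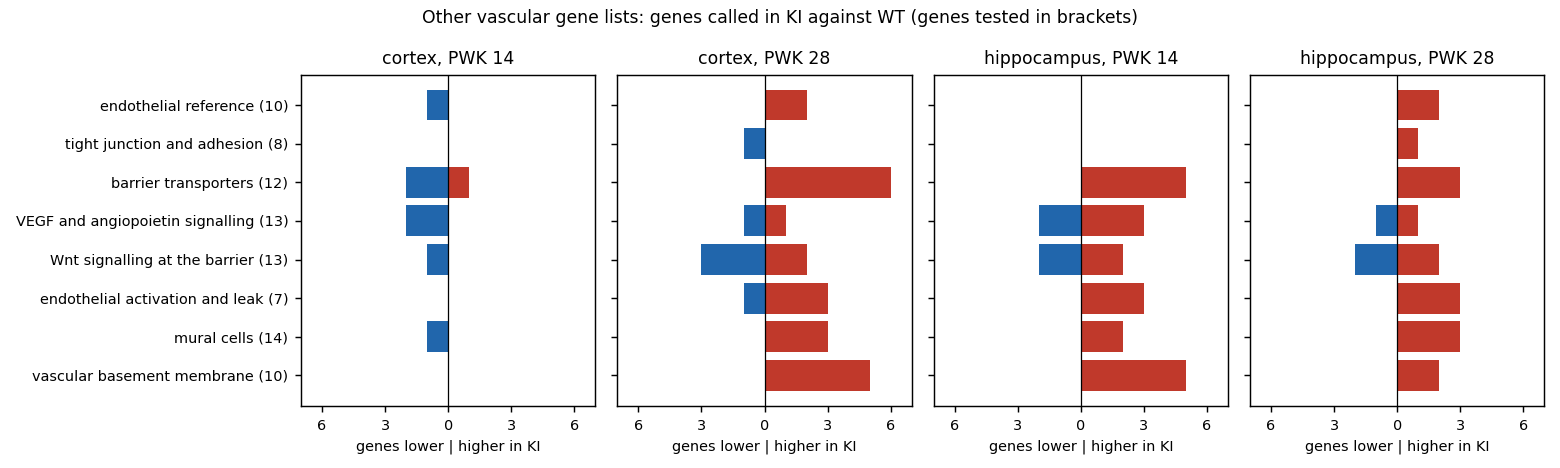
Number of genes called lower (blue, to the left) and higher (red, to the right) in KI than in WT for 8 lists of vascular genes in the 4 comparisons at PWK 14 and 28, with the number of genes tested in brackets. Bars to the left lead in cortex at PWK 14, and the basement membrane and transporter bars lie to the right in the other 3.

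The genes also varied among mice of 1 group. The median coefficient of variation within a group was between 5.88% for *Rgs5* and 12.1% for *Vtn*, and the highest values were 64.3% for *Kdr* in KI cortex at PWK 28 and 52.7%, 41.6% and 40.8% for *Mfsd2a*, *Cldn5* and *Rgs5* in KI hippocampus at PWK 14. After subtracting the mean of each group, values of the 10 genes were correlated over the 64 libraries, which share mice between the regions and include the library that stood apart. The 21 pairs of endothelial genes had a Pearson r from 0.07 to 0.72 with a median of 0.48, the 21 pairs of an endothelial and a pericyte gene from 0.14 to 0.74 (median 0.51), and the 3 pairs of pericyte genes from 0.17 to 0.62 (median 0.42), so the medians of the 3 kinds of pair lay close to each other. *Pecam1* and *Rgs5* had the highest r (0.74), *Kdr* and *Abcb1a* the lowest (0.07), and *Vtn* and *Rgs5* an r of 0.17. Over the 63 libraries without the one that stood apart, the medians were 0.46, 0.46 and 0.45, the highest r was that of *Kdr* and *Rgs5* (0.66), and the lowest again that of *Kdr* and *Abcb1a* (-0.04).

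Among 12809 other genes with a mean of at least 100, those that followed each member most closely by the same measure were named, with r over all 64 libraries and over the 63 without the one that stood apart. *Cd93*, an endothelial surface lectin, was the nearest to *Kdr* (r = 0.81, and 0.81 without that library) and to *Rgs5* (0.84 and 0.76), for which *Ets1* was next (0.84 and 0.81). *Adgra2* (GPR124), which carries the Wnt7 signal in endothelium, was the nearest to *Vtn* (0.73 and 0.75), and *Tie1*, an endothelial receptor, the nearest to *Pdgfrb* (0.80 and 0.73). *Sparc*, a secreted matrix protein, was the nearest to *Slc2a1* (0.70 and 0.69) and *Itih5* to *Abcb1a* (0.73 and 0.69). The other 4 members had nearest genes that depended more on the single library or followed them less. *Lyn* was nearest to *Cldn5* (0.71 and 0.55), *Anxa3* to *Pecam1* (0.79 and 0.68), *Sparc* to *Mfsd2a* (0.79 and 0.59) and *Rtl8a* to *Flt1* (0.59 and 0.62).

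Genes of other cell types were counted in the same libraries. In cortex at PWK 14 and 28 and hippocampus at PWK 14 and 28, in this order, 3, 3, 2 and 4 of 7 astrocyte genes were called. The shares of all genes called, in the same order, were 5.18%, 22.2%, 15.6% and 15.8%. *Gfap* rose in all 4, by 1.56, 1.52, 2.75 and 2.00, and the called genes were all higher in hippocampus. In cortex they went both ways, with *Slc1a3* lower by 0.36 and 0.37 and the gap junction gene *Gja1* lower by 0.30 at PWK 28. Without the library that stood apart, 5 of 7 astrocyte, 1 of 7 microglia and macrophage, 4 of 9 fibroblast and 3 of 7 neuron genes were called in hippocampus at PWK 14 (17.4% of all genes). Red blood cell genes were lower in KI in 0, 5, 0 and 2 of 5, and microglia and macrophage genes were higher in 0, 1, 1 and 3 of 7. Of 9 fibroblast genes 4, 6, 5 and 2 were called in both directions, of 7 neuron genes 2, 2, 2 and 4, of 7 oligodendrocyte genes 0, 0, 0 and 1, and of the 8 choroid plexus and 4 ependyma genes none. Of 6 cortex and 6 hippocampus marker genes 3, 3, 2 and 1 and 2, 4, 1 and 3 were called. The part of these cells in the results on the 10 genes was not tested.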

How the data were processed

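Frontal cortex and hippocampus RNA was sequenced after preparation with a TruSeq stranded kit. The deposited values are a normalized signal that the authors made by estimating read counts with Salmon and dividing them by DESeq2 size and transcript-length factors over all 64 libraries (18432 genes, of which 12 had no name here). These normalized counts are not raw counts, and whole reads could not be recovered, so the planned fallback for normalized values was used in place of a count test. The read depth is unknown. The submitters' processing notes name Salmon 0.11.2, DESeq2 1.19.11, R 3.6.0 and the GRCm38 build, and the study's methods name other versions.

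Groups came from the labels, and replicates are separate mice. Values were tested as log2(value + 1) with limma 3.58.1 (trend option, R 4.3.3) in the libraries of each comparison, among genes with a mean of at least 1. P-values are two-sided and Benjamini-Hochberg adjusted over all genes tested, and genes with an adjusted p under 0.05 were called. A fold change on this scale understates that of low genes. The fits were tested on simulated data. Of the other lists, named genes came from up to 2 called genes per direction and comparison whose groups did not overlap. Not all of these are given. The 3 most alike genes were taken among those with a mean of at least 100. The 10 genes and all lists were chosen with earlier results of these data known. Both regions came from each mouse, but the sources used here do not say whether a shared replicate number marks 1 mouse, so the fits hold no block for mouse. Alternatives were another pseudocount, other filters and scalings, library weights, a common fit, a replicate block and leaving out each library.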

Additional observations from a re-analysis of the deposited data

Results flagged for a closer look

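Libraries far from the other 3 of their group were sought in each of the 160 combinations of gene and group by Dixon's test, which marks about 5 in 100 groups by chance, and 15 were marked. Of these, 12 were in KI groups and 12 lay above the other libraries.

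Replicate 1 of KI hippocampus at PWK 14 accounted for 5 of the 15. It held 1251.6 normalized counts of *Cldn5* (next library 619.6), 1075 of *Kdr* (705), 2687 of *Mfsd2a* (1207), 1235.7 of *Pdgfrb* (885) and 5985 of *Rgs5* (3159). The same library was high on the endothelial, mural, astrocyte and microglia lists. In this library *Flt1* (1580.8) was the lowest of the 4 KI values and *Vtn* (1233) lay among the others.

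The gene *Kdr* was also high in replicate 1 of KI cortex at PWK 14 (484, next 279.7) and in replicate 1 of KI cortex at PWK 28 (772, next 301). *Pdgfrb* was high in replicate 1 of KI hippocampus at PWK 28 (856, next 683) and in replicate 3 of WT hippocampus at PWK 28 (820.5, next 705). *Abcb1a* was high in replicate 1 of WT cortex at PWK 28 (1031, next 848). At PWK 1, *Flt1* was high in replicate 2 of WT hippocampus (1528, next 1405), *Mfsd2a* was high in replicate 4 of KI hippocampus (1172, next 1028), and *Rgs5* was low in replicate 2 of KI cortex (4555, next 4977). At PWK 7, *Flt1* was low in replicate 4 of KI hippocampus (1268, next 1627) and *Slc2a1* was low in replicate 1 of KI cortex (2463, next 3404).

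The KI effect was called as different between the regions at PWK 14 for *Flt1*, by 0.43 on the log2 scale (limma adjusted p = 0.0391), and for *Kdr*, by 0.98 (0.0463). Both effects were higher in hippocampus than in cortex. Each call was lost in most of the fits without 1 library (adjusted p up to 0.083 for *Flt1* and 0.096 for *Kdr*). Libraries of both regions came from the same mice and were treated as separate samples.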

How the results depend on the processing

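A pseudocount of 5 or a minimum mean of 10 changed no call of the 10 genes between KI and WT. None of the 8 called differences changed sign under any alternative, but 40 of the 72 that were not called did under at least 1, with 29 turned without 1 library, 28 relative to a list and 12 under the other settings, some under several (values not called up to 0.34 in size on the log2 scale, and up to 0.089 under those other settings). Counts of called genes moved as follows, and the cause was not tested. Of the 10 genes between KI and WT, sample quality weights called 5 in cortex at PWK 14 (2 as reported). In cortex at PWK 28 (1 as reported), total-sum scaling, the fit over all 64 libraries and weights called 2, and the GC content and length correction and the replicate block called 3. In hippocampus at PWK 14 (3), the fit over all 64 libraries called 5 and the replicate block 1. In hippocampus at PWK 28 (2), no filter, total-sum scaling and the GC correction each called 1. Between regions at PWK 1 (4), total-sum scaling called 9, the GC correction 2, all 64 libraries 1 and weights 7. All 64 libraries called 2 between regions at PWK 7 (6) and 2 at PWK 14 (4), and no filter called 1 at PWK 28 (2). From PWK 7 to 14, all 64 libraries called 0 in cortex (3) and 1 in hippocampus (2), where the GC correction and the replicate block also called 1. The region difference in the KI effect at PWK 14 (2) counted 1 with total-sum scaling, 1 with the GC correction, 5 with all 64 libraries, 4 with weights and 4 with the replicate block. The age difference in the KI effect (0) counted 4 with all 64 libraries and 3 with weights in cortex, and 1 with all 64 libraries in hippocampus.

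Leaving out 1 library gave 2 to 5 called genes in cortex at PWK 14, 1 to 2 in cortex at PWK 28, 1 to 5 in hippocampus at PWK 14 and 1 to 3 in hippocampus at PWK 28. It gave 1 to 2 between regions at PWK 28, 1 to 2 in hippocampus from PWK 7 to 14, 3 to 7 in hippocampus from PWK 14 to 28, 0 to 4 for the region difference in the KI effect at PWK 14 and 0 to 3 for its age difference in cortex.

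By gene, the fit over all 64 libraries lost *Rgs5* in hippocampus at PWK 28 (adjusted p = 0.0578) and gained *Abcb1a* there (0.0113). It also gained *Rgs5* (7.58e-05) and *Slc2a1* (0.00979) in hippocampus at PWK 14, *Pdgfrb* in cortex at PWK 14 (0.0456) and *Rgs5* in cortex at PWK 28 (0.000857). The last was also called with the GC correction (0.0424) and with weights (0.0121). It was not called with the other pseudocount, the other filters or total-sum scaling (0.0535 to 0.0695). Blocking on the replicate number lost *Mfsd2a* (adjusted p = 0.0542) and *Kdr* (0.0606) in hippocampus at PWK 14 and *Slc2a1* (0.0728) in hippocampus at PWK 28, and gained *Rgs5* (0.0267) and *Vtn* (0.0488) in cortex and *Abcb1a* (0.0362) in hippocampus at PWK 28. Deviations of same-numbered libraries from their group means correlated over 0.1 in 17 of 32 pairs of cortex and hippocampus (-0.07 to 0.46), over 12819 genes. For KI and WT it was 10 of 32 pairs (-0.29 to 0.38). The count for cortex and hippocampus differed by group. All 4 pairs passed in KI at PWK 28 (mean r 0.33, and -0.11 between other numbers) and in WT at PWK 1 (0.21 and -0.07). In KI at PWK 1 and 14, 3 passed, in KI at PWK 7, 2, in WT at PWK 14, 1, and in WT at PWK 7 and 28, 0. The numbers may thus mark the mouse in some groups, but were not taken as pairing in the main fits.

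With 4 mice a group and unknown read depth, differences of the size of the wider intervals given could not be detected, and p-values measure the spread between these mice.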
